A study of Mus musculus with 3 samples.

Results

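The 9 genes described here are driver and suppressor genes of pancreatic ductal adenocarcinoma: Trp53, Cdkn2a, Smad4, Arid1a, Tgfbr2, Rnf43, Gnas, Brca2 and Gata6. They were taken as a list of names, chosen with earlier results of these data known. All 9 were found among the 21887 protein-coding genes of the RefSeq table for GRCm38. For each gene, every peak of 3 CUT&Tag libraries that touched the gene or the 5 kb on either side of it was collected. CUT&Tag directs a transposase to an antibody target, so that the DNA beside the target is cut and sequenced. The first library was made with a Flag antibody in Pan02 cells stably expressing POH1-Flag, the second with a MYC antibody in the same POH1-Flag cells, and the third with a MYC antibody in Pan02 cells labelled as vector. Pan02 is a mouse pancreatic ductal adenocarcinoma line, and all groups share that background. Each group had 1 library, so no spread between replicates exists and no p-value was computed. The intervals below cover counting error only.

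In pancreatic ductal tumours the best known suppressor lesions hit p53, the INK4a/ARF locus and the TGF-β branch that runs from the receptor TGFBR2 to SMAD4. Losses of the chromatin remodeller ARID1A, the repair protein BRCA2 and the WNT brake RNF43, activating changes of GNAS, and altered dosage of the lineage factor GATA6 are further recurrent changes. MYC is a transcription factor that binds DNA with its partner MAX, most strongly at the E-box CACGTG, and POH1 is the subunit of the proteasome lid that removes ubiquitin chains. The comparisons ask where MYC lay at these genes in either cell line, and whether Flag signal lay there too.

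The Flag list held 2936 peaks, the MYC list of POH1-Flag cells 22647 and the MYC list of vector cells 12175. The strength of a peak is given as the number of reads piled up at its summit, solved as a whole number of reads from the deposited fold and p of that peak. Median pileups over the whole lists were 15, 15 and 14 reads, and the background levels put the sequencing depth of the Flag library at 1.05 and of the POH1-Flag MYC library at 1.06 times that of the vector MYC library. The smallest pileup of any peak was 7, 5 and 6 reads in these 3 lists. A gene or site without a peak is therefore below the limit of its list, not without reads, and its reads are not known.

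Of the 9 genes, 8 had a MYC peak within 5 kb in POH1-Flag cells and 6 in vector cells, against 55.7% and 40.5% of all protein-coding genes. Gata6 had none in either. Brca2 and Rnf43 had MYC peaks in POH1-Flag cells and none in vector cells. That is 22.2% of the 9 genes, close to the 16.3% of all genes with this pattern. None of the 9 showed the opposite pattern, which 1.10% of all genes did. The 8 genes held 17 MYC peaks in POH1-Flag cells, of 6 to 30 reads with a median of 17. In vector cells 6 genes held 6 peaks of 7 to 18 reads with a median of 13.5. Each of the 6 vector peaks overlapped a POH1-Flag peak, and the other 11 POH1-Flag peaks, at 5 genes, met no vector peak. More peaks in POH1-Flag than in vector cells were counted at 5 of the 9 genes, against 29.3% of all genes. The list of POH1-Flag cells is the longer over the whole genome as well, so these counts are read against those shares and not on their own. The window takes in the whole gene, so a longer gene offers more room for a peak. The 9 genes are 11526 to 87669 bp long, and the shares over all genes were not matched for length.

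**Figure D1:**
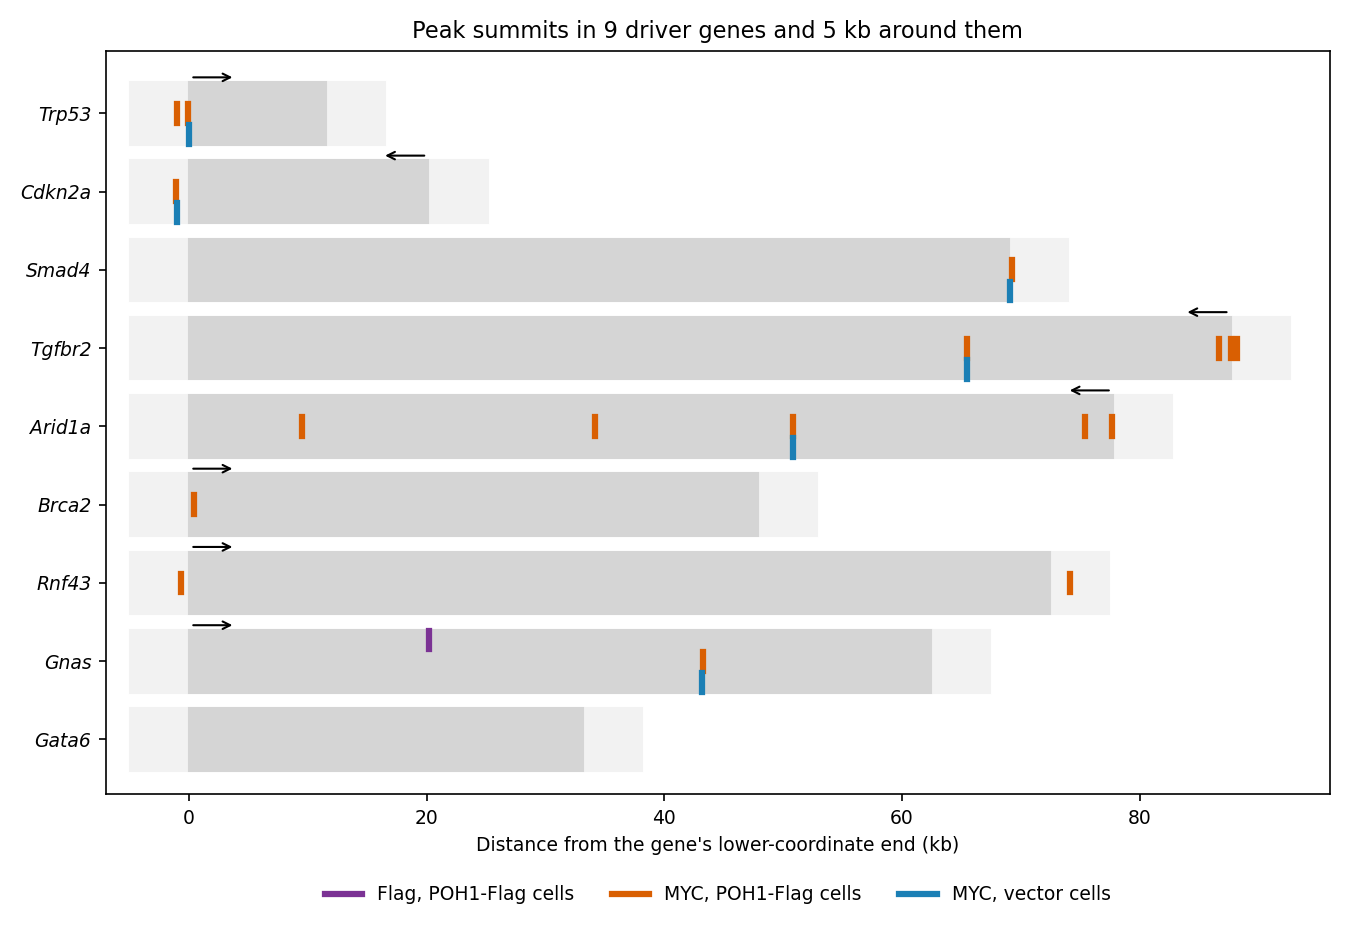
Peak summits of the 3 libraries in each driver gene (dark bar) and 5 kb around it (light bar), placed by distance in kb from the lower-coordinate end of the gene. Arrows give the direction of transcription where the promoter table holds it. Trp53, Cdkn2a, Smad4, Tgfbr2, Arid1a and Gnas carry both MYC colours, Brca2 and Rnf43 carry that of POH1-Flag cells, and Gata6 is empty.

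MYC summits lay within 1 kb of either end of the gene at 6 of 9 genes in POH1-Flag cells (Trp53, Smad4, Arid1a, Tgfbr2, Rnf43, Brca2) and at 3 of 9 in vector cells (Trp53, Cdkn2a, Smad4). The shares over all genes were 40.0% and 28.2%. In POH1-Flag cells alone such a peak was found at 4 of the 9 genes, Arid1a, Tgfbr2, Rnf43 and Brca2, against 12.4% of all genes. A table of RefSeq transcription starts held 7 of the 9 genes. Measured from those starts, which include alternative ones, 6 of the 7 had a summit within 1 kb in POH1-Flag cells and 2 of the 7 in vector cells, against 43.1% and 30.4% of the 17492 genes in that table. Of the 7, 4 had it in POH1-Flag cells only, against 13.2% of genes. Flag summits lay within 1 kb of an end at 0 of the 9 genes, against 0.196% of all genes, and within 1 kb of a RefSeq start at 0 of the 7, against 0.0800%.

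Trp53, which encodes the stress-activated transcription factor p53, had a MYC peak over its start in both cell lines. The gene lies on chromosome 11, 69580348 to 69591873, on the plus strand. In POH1-Flag cells the peak ran from 69580060 to 69580613 with 26 reads, and in vector cells from 69580102 to 69580563 with 17 reads. The summits lay 114 bp upstream of the RefSeq start in POH1-Flag cells and 17 bp downstream of it in vector cells. The POH1-Flag summit is also 5 bp from an end of Wrap53, the neighbouring gene that faces away from Trp53 and whose product helps telomerase assemble, so that the signal belongs to a start region common to both genes. A further peak of 22 reads in POH1-Flag cells, 1062 bp upstream of the Trp53 start and inside Wrap53, had no vector counterpart. For an equal background a vector peak at that place would have needed 14 reads.

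The start region of Trp53 is shown because both MYC peaks cover it whole and because it was the only one of the 13 promoter windows of these genes to hold the canonical E-box. The stretch is chr11:69580109-69580374 on the plus strand of GRCm38, from 250 bases before the RefSeq start to 16 bases after it, as are all stretches below, and comes from RefSeq. Capitals mark CACGTG, which begins 11 bases into the transcript and ends close to the vector summit.
Trp53 start: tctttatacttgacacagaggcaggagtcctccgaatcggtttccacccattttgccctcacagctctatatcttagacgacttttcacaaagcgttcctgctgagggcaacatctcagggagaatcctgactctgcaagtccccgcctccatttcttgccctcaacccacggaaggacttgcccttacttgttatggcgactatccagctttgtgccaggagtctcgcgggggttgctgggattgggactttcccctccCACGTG
Of the 21263 promoter windows of protein-coding genes, each 250 bases before to 50 after a start, 7.84% held CACGTG. The motif is its own reverse complement. A match describes the letters of the window and not occupancy.

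Cdkn2a encodes the INK4a and ARF proteins, which act in the RB and p53 pathways and have separate first exons. It lies on chromosome 4, 89274473 to 89294619, on the minus strand, and neither of its RefSeq starts, at 89294619 and 89282192, had a MYC peak within 1 kb. The only peaks lay just past the far end of the gene, from 89273202 to 89273778 with 11 reads in POH1-Flag cells and from 89273385 to 89273690 with 9 reads in vector cells. These peaks were weak in their lists, with pileups at the 27.4th and 10.9th percentile. Their summits lay 1110 and 981 bp beyond the gene, so the loss of a gene-end call in POH1-Flag cells comes from the limit of 1 kb and not from a missing peak. Within 1 Mb lay 47 MYC peaks of POH1-Flag cells and 30 of vector cells, against medians of 25 and 13 over all genes. Outside the 5 kb window, the nearest MYC peaks in POH1-Flag cells lay 9.53 kb below and 78.3 kb above the gene. In vector cells they lay 146 kb below and 93.0 kb above it.

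The upstream start of Cdkn2a is shown because it lacked a peak although it holds the E-box variant CACGCG at 2 places. That motif and its reverse complement CGCGTG occurred in 12.1% of promoter windows, and among the 13 windows here in this one. The stretch is chr4:89294604-89294869, read on the minus strand, with both matches in capitals at 242 and 8 bases before the start.
Cdkn2a upstream start: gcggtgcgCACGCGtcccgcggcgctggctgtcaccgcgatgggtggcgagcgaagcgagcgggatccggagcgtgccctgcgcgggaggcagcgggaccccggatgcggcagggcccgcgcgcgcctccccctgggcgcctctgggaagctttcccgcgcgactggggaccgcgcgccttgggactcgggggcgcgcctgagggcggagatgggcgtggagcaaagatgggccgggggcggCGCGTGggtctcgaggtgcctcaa
Its G and C content over the 300 bases was 77%, the third highest of the 13 windows.

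Tgfbr2, the receptor that binds TGF-β and recruits the kinase TGFBR1, carried the site with the highest MYC ratio among these genes. It lies on chromosome 9, 116087695 to 116175363, on the minus strand. Inside the gene, 22204 bp downstream of the start in POH1-Flag cells and 22199 bp in vector cells, the same site had 22 and 7 reads. Divided by the genome-wide background of each library, the POH1-Flag pileup was 3.22 times the vector pileup (95% counting interval 1.33 to 8.91), which lies at the 99.7th percentile of the 9229 MYC sites found in both lists and free of a Flag peak. The peak was 554 bp wide in POH1-Flag cells and 219 bp in vector cells, the smallest width in the vector list. The vector pileup of 7 reads was close to the weakest of its list, and the interval is accordingly wide.

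At the start of Tgfbr2 MYC peaks were found in POH1-Flag cells only. There were 3, of 11, 13 and 11 reads, with summits 979 bp downstream, 18 bp upstream and 498 bp upstream of the RefSeq start. These are weak peaks, with authors' −log10 q values of 1.77, 2.88 and 1.79. A vector peak would have needed 11 reads at each for an equal background, close to the pileups seen in POH1-Flag cells. The depth therefore does not resolve whether the cell lines differ at this start. The start is shown because the middle peak covers 236 of the 300 bases of its window. The stretch is chr9:116175348-116175613 on the minus strand, with no capitals, since the canonical E-box and the variants CACGCG and CATGTG were not among its letters. The general E-box CANNTG, where N is any base, began 17 bases into the transcript, past the stretch shown.
Tgfbr2 start: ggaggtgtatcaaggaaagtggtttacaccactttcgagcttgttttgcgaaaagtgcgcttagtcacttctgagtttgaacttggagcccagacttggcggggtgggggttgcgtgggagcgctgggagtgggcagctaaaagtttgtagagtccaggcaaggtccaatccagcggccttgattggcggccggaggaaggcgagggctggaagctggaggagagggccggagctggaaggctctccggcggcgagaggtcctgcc

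Smad4, the common partner of receptor-activated SMAD proteins, had a single MYC peak at its upper-coordinate end in both cell lines. The gene lies on chromosome 18, 73634790 to 73703791. The peak had 19 reads in POH1-Flag cells and 12 in vector cells, with summits 298 and 114 bp beyond the gene. They lay closer, 163 and 21 bp, to an end of a neighbouring long noncoding RNA gene. The ratio was 1.62 (0.747 to 3.66), and the depth does not resolve a difference.

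Arid1a, a subunit of the BAF chromatin remodelling complex, had the most peaks, with 5 in POH1-Flag cells and 1 in vector cells. The gene lies on chromosome 4, 133679008 to 133756769, on the minus strand. In POH1-Flag cells MYC peaks lay at both of its starts, with 30 reads 99 bp downstream of the start at 133756769 and 28 reads 446 bp upstream of the alternative start at 133753985. Neither had a vector peak, which at an equal background would have needed 17 reads at each place. Vector reads below a call are not known, so the size of any difference at these starts is not known. The local background there was high, at 5.78 and 5.86 reads, so the authors' fold values were modest at 4.57 and 4.23. The site shared by both lines lay inside the gene, 24185 bp downstream of the alternative start in POH1-Flag cells, with 28 reads in POH1-Flag cells and 15 in vector cells. Over its lower background this peak had the highest fold (8.83) and −log10 q (17.5) of the 5 in POH1-Flag cells. Its ratio was 1.91 (0.986 to 3.85), an interval that just holds 1, and its width was 1070 bp against 316 bp. Peaks of 14 and 6 reads deeper in the gene, found in POH1-Flag cells only, complete the set, and the smaller is among the weakest of its list.

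The upstream start of Arid1a is shown since a POH1-Flag peak of 30 reads covers its whole window and no vector peak touches it. No CANNTG, the general E-box, was found in either window of the gene, whereas 69.0% of all windows held one. By gene, 5 of the 7 members with a listed start held it, against 72.1% of all genes with one. The stretch is chr4:133756754-133757019 on the minus strand, again with no motif to mark.
Arid1a upstream start: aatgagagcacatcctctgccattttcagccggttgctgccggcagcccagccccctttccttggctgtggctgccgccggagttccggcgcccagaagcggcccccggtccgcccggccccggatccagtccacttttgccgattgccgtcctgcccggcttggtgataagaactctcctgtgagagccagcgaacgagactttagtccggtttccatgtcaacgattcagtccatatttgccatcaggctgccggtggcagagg

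Brca2, which acts in the repair of broken DNA by homologous recombination, had a MYC peak at its start in POH1-Flag cells and none in the gene or 5 kb around it in vector cells. The gene lies on chromosome 5, 150522297 to 150570147, on the plus strand. The peak ran from 150522542 to 150522853 with 17 reads, a fold of 5.80 and a −log10 q of 7.70, and its summit was 75 bp downstream of the RefSeq start. A vector peak would have needed 9 reads for an equal background. With the POH1-Flag list shortened to the length of the vector list by −log10 q, Brca2 was the only one of the 9 genes still found in POH1-Flag cells alone. The share of all genes under that setting is not given. Its start is shown because, of the 2 genes without any vector peak, Brca2 had the larger −log10 q. Capitals mark CACATG, the reverse complement of the E-box variant CATGTG, 104 bases before the start, a motif in 11.5% of all windows. The stretch is chr5:150522371-150522636 on the plus strand, and the peak covers 129 of the 300 bases of the window, at its downstream side and so not at the capitals.
Brca2 start: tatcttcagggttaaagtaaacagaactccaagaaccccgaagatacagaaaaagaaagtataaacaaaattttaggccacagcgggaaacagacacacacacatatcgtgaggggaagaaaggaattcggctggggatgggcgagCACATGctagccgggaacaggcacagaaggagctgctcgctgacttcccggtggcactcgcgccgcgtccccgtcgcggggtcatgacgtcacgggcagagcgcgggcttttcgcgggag

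Rnf43, a ubiquitin ligase that removes WNT receptors from the cell surface, had 2 MYC peaks in POH1-Flag cells and none in vector cells. It lies on chromosome 11, 87663087 to 87735539, on the plus strand. One peak of 14 reads lay 657 bp upstream of its first RefSeq start. The other, of 13 reads, lay 1654 bp past the gene and 358 bp from an end of Supt4a, which encodes a transcription elongation factor, and is thus closer to that neighbour. A vector peak would have needed 9 reads at either place for an equal background. Vector reads below a call are not known, so the size of any difference at these places is not known. The authors' −log10 q values were 5.02 and 4.82.

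Gnas encodes the stimulatory G protein subunit that couples receptors to cyclic AMP, from an imprinted locus with several alternative starts. It lies on chromosome 2, 174284320 to 174346744, on the plus strand. MYC peaks were found at neither end of the gene but at internal starts in both cell lines. The peak ran from 174327171 to 174327991 with 21 reads in POH1-Flag cells and from 174327455 to 174327688 with 18 reads in vector cells. Its summits lay 211 and 230 bp upstream of the RefSeq start at 174327749, and a second listed start follows at 174327768. The starts at 174284320 and 174330006 had no MYC summit within 1 kb. The ratio of 1.19 (0.606 to 2.38) was the lowest of the 6 shared sites, and the depth does not resolve a difference. The peak was 821 bp wide in POH1-Flag cells and 234 bp in vector cells.

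The internal start of Gnas is shown because a rule based on gene ends misses it. The stretch is chr2:174327499-174327764 on the plus strand. The canonical E-box and the variants CACGCG and CATGTG were not found, so there are no capitals. The general E-box CANNTG, which is not marked, occurred 133 bases before the start and 40 bases into the transcript.
Gnas internal start: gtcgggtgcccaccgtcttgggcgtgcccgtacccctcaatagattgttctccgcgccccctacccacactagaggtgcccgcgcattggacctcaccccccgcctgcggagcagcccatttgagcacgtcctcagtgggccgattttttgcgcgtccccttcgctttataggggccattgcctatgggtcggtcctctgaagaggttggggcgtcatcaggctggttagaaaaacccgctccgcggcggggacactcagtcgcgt

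Gata6, a zinc finger factor of the pancreatic and classical tumour lineage, had no peak in any of the 3 libraries. It lies on chromosome 18, 11052510 to 11085636. The nearest MYC peak lay 36.1 kb below the gene in POH1-Flag cells and 203 kb above it in vector cells, and the nearest Flag peak lay 203 kb above it. Within 1 Mb lay 19 MYC peaks of POH1-Flag cells and 6 of vector cells, against quartiles of 14 and 39 in POH1-Flag cells and 7 and 23 in vector cells over all genes.

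**Figure D2:**
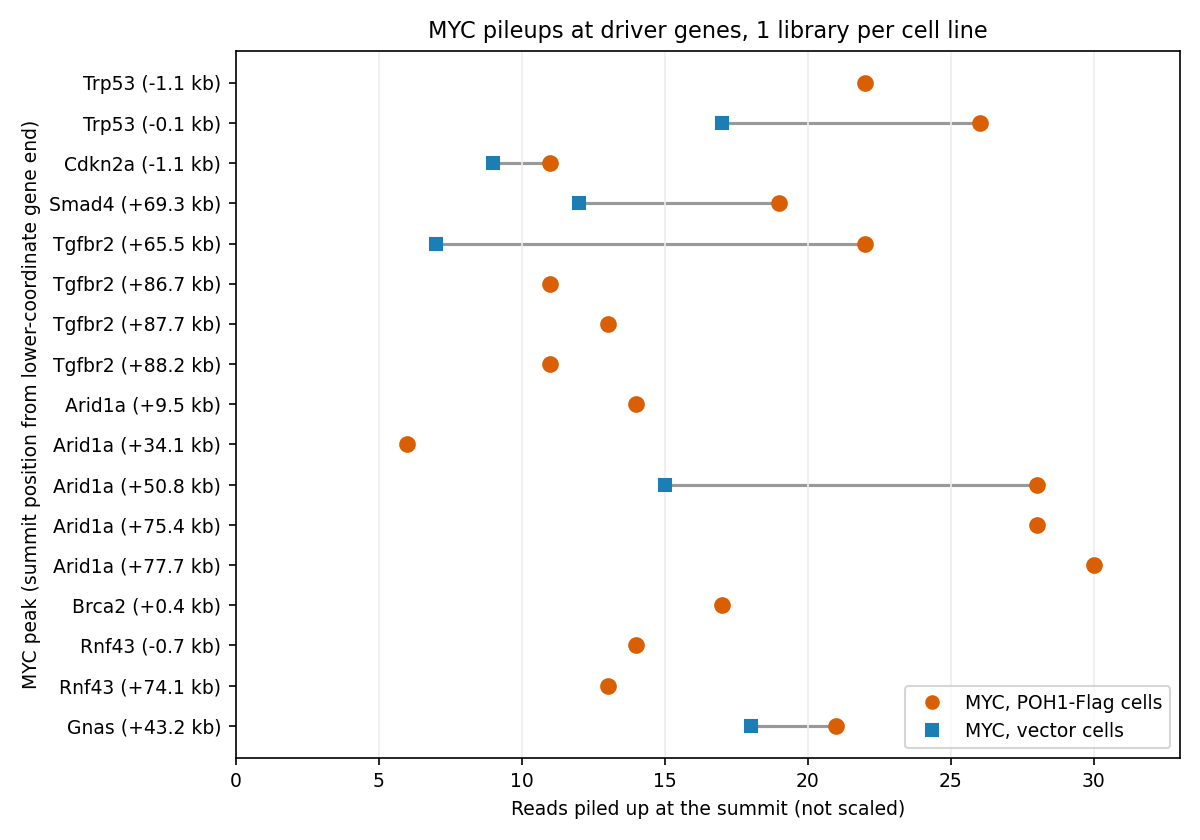
Reads at the summit of each MYC peak of POH1-Flag cells (circles) and of the overlapping peak of vector cells (squares), by gene and distance in kb from the lower-coordinate gene end, with 1 library per cell line. A row without a square has no vector peak. Every square lies left of its circle, and the circles run from 6 to 30 reads.

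Over the 6 shared sites the pileup ratios of POH1-Flag to vector cells were 1.56 at Trp53 (0.817 to 3.07), 1.25 at Cdkn2a (0.471 to 3.41), 1.62 at Smad4, 3.22 at Tgfbr2, 1.91 at Arid1a and 1.19 at Gnas. All 6 were above 1, as were 94.8% of the 9229 shared MYC sites without a Flag peak, whose median was 1.59 with a 10th to 90th percentile of 1.12 to 2.19. The interval excluded 1 at 1 of the 6, Tgfbr2, and at 21.7% of those sites. At the other 5 genes the ratio lay between the 10th and the 90th percentile. Peak widths in POH1-Flag and vector cells were 554 and 462 bp at Trp53 and 577 and 306 bp at Cdkn2a. At Smad4 they were 566 and 429 bp, and the medians of the whole lists were 433 and 398 bp. When ratios were scaled so that the median over all 10127 shared MYC sites is 1, they were 1.02 at Trp53, 0.815 at Cdkn2a, 1.06 at Smad4, 1.24 at Arid1a, 2.10 at Tgfbr2 and 0.778 at Gnas, and the interval at Tgfbr2 (0.864 to 5.81) then held 1.

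**Figure D3:**
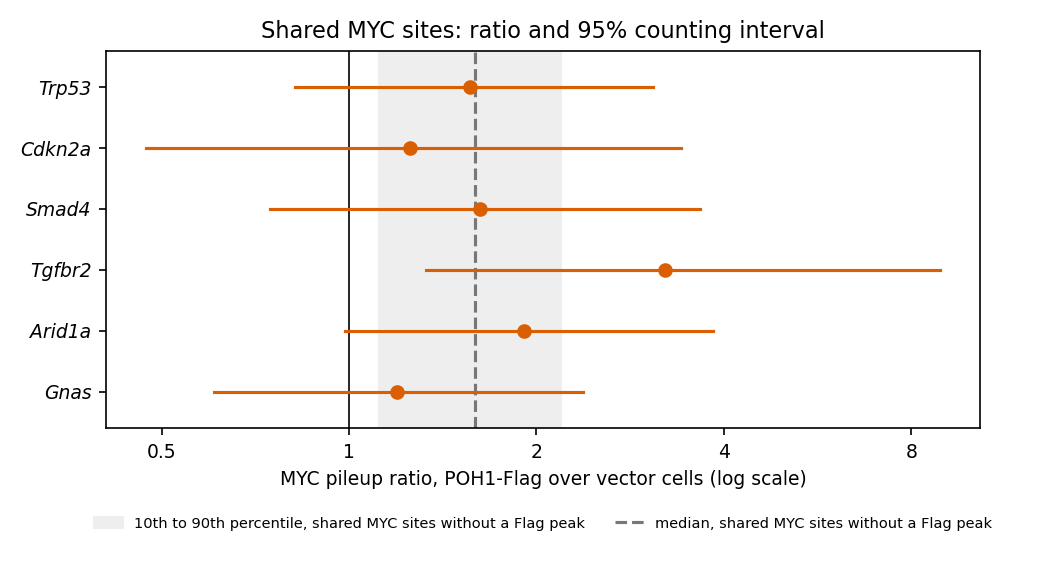
Pileup ratio of POH1-Flag to vector cells (log axis) at the 6 MYC sites present in both lists, with exact 95% counting intervals. The grey band (1.12 to 2.19) and dashed line (1.59) give the 10th to 90th percentile and the median of the 9229 shared MYC sites without a Flag peak. Tgfbr2 lies right of the band, and the other intervals cross 1.

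Flag peaks are few over the whole genome, and 1 of the 9 genes had one in its window, against 4.29% of all genes. It lay inside Gnas, with 9 reads and a −log10 q of 2.51, 20222 bp downstream of the first start and apart from the MYC peak of that gene. A Flag peak that overlapped a MYC peak was found in the window of 0 of the 9 genes, against 2.64% of all genes, a share too small for the 0 to be read as a result about these genes. Within 1 Mb, Flag peaks numbered 3 at Gata6 and Gnas, 2 at Cdkn2a, 1 at Smad4 and Tgfbr2 and 0 at Trp53, Arid1a, Rnf43 and Brca2, with a median of 1 over all genes.

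Genes of the same pathways were read from 7 lists with 59 genes. Within 1 kb of a gene end, 48 of the 59 had a MYC peak in POH1-Flag cells (81.4%), 37 in vector cells (62.7%) and 0 a Flag peak, against 40.0%, 28.2% and 0.196% of all genes. Peaks in POH1-Flag cells alone were found at 11 genes and in vector cells alone at 0. These are counts over lists chosen with earlier results of these data known, with no test.

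Among 8 TGF-β and activin genes, 8 had a gene-end MYC peak in POH1-Flag cells and 7 in vector cells. The strongest were the SMAD antagonists Skil (52 reads in POH1-Flag and 34 in vector cells) and Ski (44 in POH1-Flag and 27 in vector cells), and the inhibitory SMAD gene Smad7 had 25 reads in POH1-Flag cells and no vector peak. Tgfbr1, the partner of TGFBR2, had 22 reads in POH1-Flag cells and 16 in vector cells. A gene-end peak of Tgfbr1 was thus called in both lines, and that of Tgfbr2 in POH1-Flag cells only.

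Of 8 genes of p53 and RB control, 6 had such a peak in POH1-Flag cells and 4 in vector cells. In both counts, and in those over the 59 genes, Wrap53 is present through the Trp53 peak described above. Mdm2, the ubiquitin ligase of p53, had 58 reads in POH1-Flag cells and 28 in vector cells (ratio 2.12, 1.33 to 3.46), a site stronger in both lines than that of Trp53. Cdk4, the kinase that INK4a inhibits, had 42 reads in POH1-Flag cells and 27 in vector cells. The changes in call were Rb1, the retinoblastoma gene (12 reads in POH1-Flag cells), and Cdk6 (24 reads in POH1-Flag cells). Cdkn2b, the neighbour and relative of Cdkn2a, had no peak in its window in any library.

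Chromatin regulators had peaks at 9 and 6 of 10 genes in POH1-Flag and vector cells, led, with reads in POH1-Flag and vector cells, by the BAF ATPase gene Smarca4 (52 and 30) and the PBAF subunit gene Pbrm1 (51 and 38). For DNA repair 9 of 9 genes had a peak in POH1-Flag cells and 7 in vector cells, among them the BRCA1 partner gene Bard1 (34 reads in POH1-Flag and 21 in vector cells). In the WNT list 4 of 7 genes had a peak in POH1-Flag cells and 4 in vector cells. Znrf3, the closest relative of Rnf43, was among them in both lines with 31 reads in POH1-Flag cells and 26 in vector cells, and Ctnnb1, the β-catenin gene, had 23 reads in POH1-Flag cells and 10 in vector cells (ratio 2.35, 1.08 to 5.54). Lineage factors had the lowest shares of the 7 lists, with 4 of 9 genes in POH1-Flag cells and 3 in vector cells. Klf5 (33 reads in POH1-Flag and 20 in vector cells) and Pdx1 (22 in POH1-Flag and 17 in vector cells) had the largest pileups. Other suppressors had 8 of 8 in POH1-Flag cells and 6 in vector cells, led by Nf2 (37 reads in POH1-Flag and 20 in vector cells) and Stk11, the LKB1 kinase gene (29 in POH1-Flag and 21 in vector cells).

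**Figure D4:**
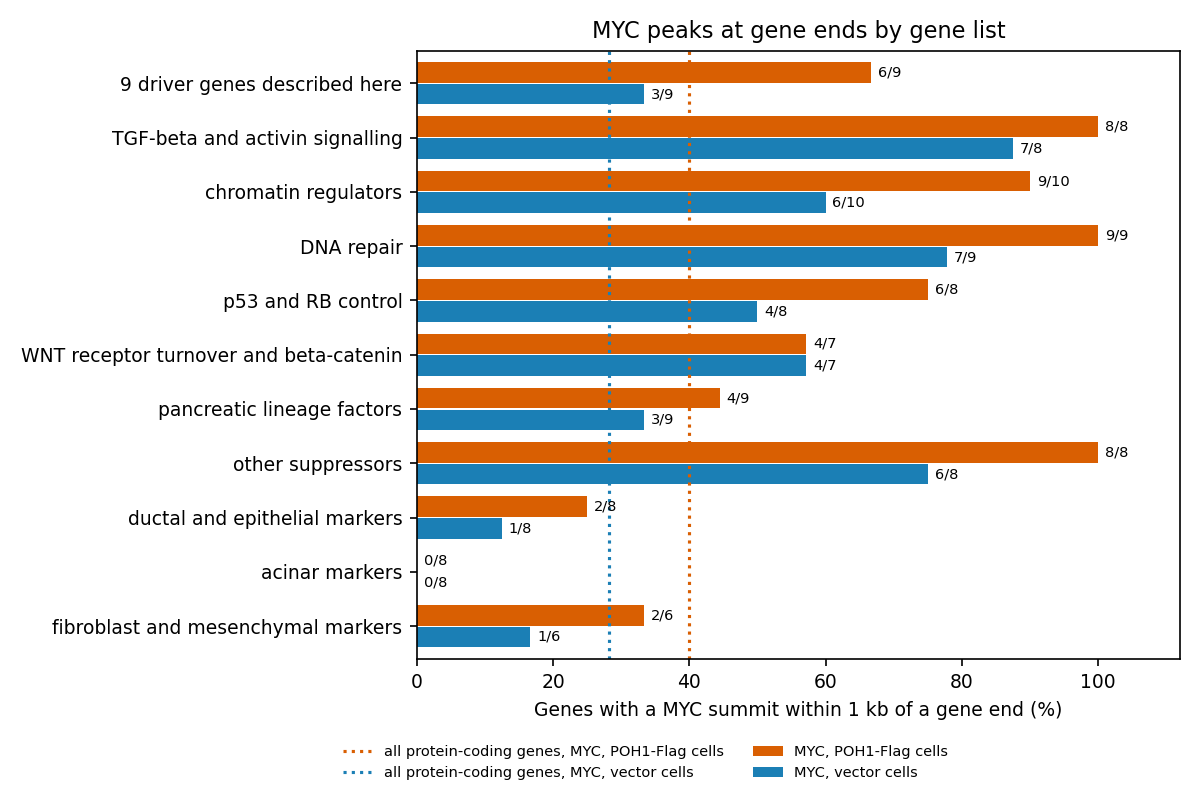
Share of genes (%) with a MYC summit within 1 kb of a gene end in each list, POH1-Flag cells above vector cells, with counts beside the bars. Dotted lines give all protein-coding genes, 40.0% and 28.2%. The 9 driver genes stand at 6 of 9 in POH1-Flag cells and 3 of 9 in vector cells, and acinar markers at 0 of 8 in both.

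The labelled cell type could be checked only through which marker genes carried peaks, since MYC peaks do not measure expression. Ductal and epithelial markers had gene-end peaks at 2 and 1 of 8 genes in POH1-Flag and vector cells. Muc1 had one in both (20 reads in POH1-Flag and 13 in vector cells) and Krt7 in POH1-Flag cells (12 reads). The Muc1 values are the largest pileup in each line and not a matched pair of peaks. The other markers of this list, among them Krt19, Krt18 and Epcam, had no gene-end peak. Fibroblast and mesenchymal markers had 2 and 1 of 6, with Vim at 38 reads in POH1-Flag and 23 in vector cells and Pdgfrb at 10 reads in POH1-Flag cells. The other markers of that list had no gene-end peak. Acinar markers had 0 of 8 in both. The shares of all 3 marker lists lay below the 40.0% and 28.2% of all genes in POH1-Flag and vector cells.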

How the data were processed

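The 3 CUT&Tag libraries were studied by their deposited peak lists, 1 list per library. Per the labels' protocols the libraries came from a commercial transposase kit. Per the submitters' processing notes, the tools named are MACS2 2.2.7.1, BWA 0.7.17-r1188, Trim Galore 0.6.6 and FastQC 0.11.9, and the build is GRCm38/mm10. Their roles and parameters, any control library and duplicate handling were not given in the sources used here. The deposited lists hold the authors' fold enrichment (a linear ratio), the authors' −log10 p and −log10 q, and a deposited score derived from q. Fold and q describe peaks within a list, and their values were not compared between lists. The checks of processing below do apply the same limit of q or fold to each list.

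The whole-read pileup k and background λ at each peak follow from 2 equations, (k + 1)/(λ + 1) = fold and P(X > k) = p for a Poisson count of mean λ, with 100% of peaks whole within 0.01 of a read. Ratios between MYC lists used mutually best overlapping peaks (at least 1 bp), divided by the lowest λ of each library, with exact conditional Poisson 95% intervals. Pileups were read at each library's own summit, and kept PCR duplicates would make intervals too narrow. Reads needed for a vector peak were the smallest count that reached the weakest p of any vector peak at the POH1-Flag background scaled to the vector library. At each of the 6 shared sites the vector background was lower than the POH1-Flag one, so fewer reads may have been enough. Pileup recovery, window and gene-end calls, peak overlaps and counting intervals were tested on simulated data, and the motif search and the reads needed for a vector peak were not.

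Genes and starts came from RefSeq tables of GRCm38.p6 without exons, so exon, intron and UTR classes were not assigned. Starts of 7 of the 9 genes matched by symbol. Smad4 and Gata6 are described by gene ends only. Named genes were all 9 members with every peak, neighbours with an end within 1 kb of a summit, the 2 strongest genes of each wider list, and genes of the TGF-β and p53 lists whose call differed; predicted genes were left out. Of the genes this selects, 1 is not reported here. Tgfbr1, Cdkn2b, Krt19, Krt18 and Epcam were named in addition after their values were seen. Members and lists were chosen with earlier results of these data known. The rule with RefSeq starts was added after the data were seen. Python 3.11.15, numpy 2.4.6, scipy 1.17.1 and pandas 2.3.3 were used.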

Additional observations from a re-analysis of the deposited data

How the results depend on the processing

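No paired analysis was possible because each group has 1 library. At a −log10 q of at least 5, members with a peak in the window numbered 3 for MYC in vector cells, members with one at a gene end 1 (Trp53) for MYC in vector cells, and members with a MYC peak in POH1-Flag cells only 4 (Smad4, Tgfbr2, Rnf43 and Brca2) in place of 2. At a fold of at least 5, members with a gene-end MYC peak in POH1-Flag cells numbered 3 (Trp53, Smad4 and Brca2) in place of 6. With lists of equal length 1 member, Brca2, had a MYC peak in POH1-Flag cells only. Members with a Flag peak in the window numbered 0 under the q limit of 5, 0 under the fold limit of 5 and 2 with 20 kb on each side. These shifts follow from which peaks pass each limit. Shares over all genes are given only for the main counts, so the shifted counts cannot be read as results about these genes. The other 28 counts stayed within 1.5 times the value reported, and each of the 6 pileup ratios stayed within its counting interval under the other scalings. A similar count can still hide a change of genes. At a fold of at least 5, members with a MYC peak in POH1-Flag cells only were Trp53, Tgfbr2 and Brca2, in place of Rnf43 and Brca2. The E-box variant CATGTG was found in the promoter of 1 member in place of 2 with 100 bases before the start. With pileups of 7 to 28 reads at the shared sites, 5 of 6 intervals held 1, and with a median ratio of 1 over all shared sites that of Tgfbr2 (0.864 to 5.81) held 1 too.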

Other observations

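Beyond the 5 kb window, 3 genes had further peaks within 20 kb. Past the far end of Cdkn2a, about 9.6 kb away, a Flag peak of 12 reads (−log10 q 5.15) overlapped a MYC peak of POH1-Flag cells, also of 12 reads (8.01), and no vector peak was called there. It was the only site within 20 kb of these genes where Flag and MYC peaks overlapped. Shares over all genes are not given at 20 kb, so these counts describe single places and are not results about the genes. Below Arid1a, MYC peaks at 6.50 and 18.6 kb had 19 and 20 reads in POH1-Flag cells and 17 and 14 reads in vector cells, each within 1.5 kb of an end of Pigv, which encodes a mannosyltransferase of GPI anchor synthesis. Beyond Brca2 a MYC peak of 9 reads at 8.83 kb was found in POH1-Flag cells only.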
